A study of Mus musculus with 16 samples.

Results

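Heat shock proteins and chaperones are the proteins that fold, hold or refold other proteins. The 9 genes described here are Hspa1a, Hspa8, Hspa5, Hsp90aa1, Hspb1, Dnajb1, Hsph1, Hspd1 and Hspe1, taken by symbol from the annotation in the scanner files. They are 9 of 22095 genes or unnamed features tested, measured by 14 of the 39319 probes with a usable spot. All 9 were tested and all 14 probes passed the filter on dim probes. Hspa8 and Hspe1 have 3 probes each, Hsph1 has 2 and the others have 1.

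RNA came from untreated C57BL/6 mice, and each of 4 sorted cell groups was read on 4 one-colour Agilent arrays, 16 in all. CCR2+ macrophages (labelled CCR2+ Mac), MHC-IIHi macrophages (MHC-IIHi Mac) and MHC-IIlo macrophages (MHC-IIlo Mac) came from hearts that had been minced and enzymatically digested. All 3 gates took live cells positive for CD45, MerTK and CD64 and negative for Ly6c. The CCR2+ gate was high for CCR2 and MHCII. Of the gates without CCR2, MHC-IIHi cells were high for MHCII with low CD11c, and MHC-IIlo cells had low MHCII and no CD11c. Ly6cHi monocytes (Ly6cHi Mono) came from blood, for which the labels name no tissue digestion. Cell group, tissue of origin and digestion therefore cannot be told apart in any comparison with monocytes. No age or sex is given, and nothing says whether replicates came from separate animals, so p-values measure the spread between these samples, which may be technical. In bulk RNA, fewer cells of a type and less RNA per cell cannot be told apart.

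The scanner marked 52.8% to 69.3% of the spots on an array as well above background, and the 75th percentile of the signal was 1380 to 1670 in CCR2+, 941 to 1660 in MHC-IIHi and 1160 to 1610 in MHC-IIlo macrophages, against 819 to 996 in monocytes. Levels are log2 signals relative to that percentile of the same array, so that 0 is a probe at the 75th percentile. Of the sort markers, Ccr2 and Mertk followed the labels of the scanner files. Ccr2 averaged 0.56 in CCR2+, -3.31 in MHC-IIHi and -3.91 in MHC-IIlo macrophages, and Mertk was not well above background on any of the 4 monocyte arrays. Of 9 gate markers, 7 were higher in CCR2+ than in MHC-IIlo macrophages by limma. Between MHC-IIlo macrophages and monocytes only Mertk was called higher and 4 were lower, so Fcgr1, the gene of CD64, was not called higher there. In the deposited value table, 12 of the 16 columns matched best an array labelled with another group, and that table gave none of the values below. Replicate number is the slide number, with 1 array of every group on each of 4 slides, and each group kept its own position on all slides, so the effects of position and group cannot be told apart.

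Cytosolic HSP70 proteins bind unfolded stretches of a client and release them in a cycle driven by ATP. J-domain proteins such as Dnajb1 deliver the client and trigger ATP hydrolysis, Hsph1 (HSP110) exchanges the nucleotide, HSP90 takes over clients close to their folded form, and small heat shock proteins such as Hspb1 hold clients until an ATP-driven chaperone frees them. Hspd1 and Hspe1 form the folding chamber of mitochondria and its lid, and Hspa5 (BiP) is the HSP70 of the endoplasmic reticulum. Heat and other protein damage activate the transcription factor HSF1, which binds heat shock elements, inverted repeats of GAA units, upstream of most of these genes, whereas Hspa5 is driven mainly by the unfolded protein response through the endoplasmic reticulum stress element. Transcripts of this kind and immediate early genes are known to respond to tissue dissociation.

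The Hspa1a probe is shown because the largest difference among the chaperones detected in monocytes rests on it. The array has no probe named Hspa1b, the near-identical neighbour of Hspa1a, whose transcripts may bind here too.
Hspa1a probe: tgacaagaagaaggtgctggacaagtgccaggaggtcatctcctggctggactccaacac

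Start-site sequences of RefSeq (GRCm38.p6) were at hand for 7 of the 9 genes, in 10 windows of 300 bases, and not for Hspa8 and Hsp90aa1. The 130 bases just upstream of the start site are shown for 5 genes, 5′ to 3′ on the strand of the gene, to set the inducible genes beside Hspa5; capitals mark matches to the heat shock element pair GAANNTTC or TTCNNGAA, and in Hspa5 the match to the endoplasmic reticulum stress element, CCAAT and CCACG with 9 bases between them.
Hspa1a, chr17:34972157-34972286, minus strand: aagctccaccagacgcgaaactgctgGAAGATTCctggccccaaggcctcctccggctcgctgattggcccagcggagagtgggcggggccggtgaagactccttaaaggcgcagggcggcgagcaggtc
Hspb1, chr5:135887789-135887918, plus strand: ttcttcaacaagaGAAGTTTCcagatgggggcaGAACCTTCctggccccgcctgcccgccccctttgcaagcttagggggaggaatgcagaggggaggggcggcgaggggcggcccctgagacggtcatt
Hsph1, chr5:149636337-149636466, minus strand: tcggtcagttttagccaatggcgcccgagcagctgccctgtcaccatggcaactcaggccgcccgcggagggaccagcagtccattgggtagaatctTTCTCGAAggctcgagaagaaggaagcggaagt
Hspe1, chr1:55088018-55088147, plus strand: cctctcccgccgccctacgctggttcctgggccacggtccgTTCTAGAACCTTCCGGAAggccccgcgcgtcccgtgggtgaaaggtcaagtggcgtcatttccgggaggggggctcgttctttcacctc
Hspa5, chr2:34771960-34772089, plus strand: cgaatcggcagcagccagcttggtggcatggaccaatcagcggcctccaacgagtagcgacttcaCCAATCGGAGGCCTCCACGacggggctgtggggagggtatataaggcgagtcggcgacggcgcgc

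Motifs were searched on both strands, and matches that overlap were counted separately. A triple is a pair followed, after 2 further bases, by another inverted unit, so each triple contains pairs. Of 32851 windows of all genes, 15.1% hold a pair and 0.603% a triple. The Hspa1a window holds 1 pair, starting at position -104 from the start site, and the Hspb1 window holds 2, at -117 and -97. Hspe1 holds 3 overlapping pairs that make 2 triples, at -89 and -84, and the same bases lie in a window of Hspd1, the neighbouring gene read the other way. Hsph1 has a pair upstream at -33 and a triple past that start site. The stress element occurs in 0.119% of windows and in Hspa5 starts at -65; neither Dnajb1 window holds any of these letters. The letters describe the windows and were not tested as sites.

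Against blood monocytes, 6 of the 9 chaperones were higher in each macrophage group by limma (adjusted p under 0.05 over all features) and none was lower. The 6 were Hspa1a, Hspb1, Hsp90aa1, Hsph1, Dnajb1 and Hspd1 in every group. Hspb1 was well above background on no monocyte array, so it passed the filter on dim probes through macrophage arrays alone. It could scarcely come out lower, here or in the counts of groups without overlap. The share of all features called higher was 9.96% in CCR2+, 10% in MHC-IIHi and 10.1% in MHC-IIlo macrophages. Over the 9 genes the median log2 difference was 1.41, 1.92 and 1.62 in those 3 comparisons, beside -0.09, -0.05 and -0.05 over all features. For the mean of the 3 macrophage groups minus monocytes, 7 of 9 were higher (12.4% of all features), Hspa5 being the addition. All arrays of a macrophage group lay above all monocyte arrays for 6 of 9 genes in CCR2+, 7 in MHC-IIHi and 7 in MHC-IIlo macrophages, as they did for 10.6%, 10.4% and 10.5% of all features. The 3 comparisons share the same 4 monocyte arrays, so they are not separate evidence. With normexp background correction the split of calls over all features moved toward lower ones: 29.7%, 35.4% and 33.7% of the calls were higher in the 3 groups, beside 45.8%, 46.8% and 47.3%.

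**Figure D1:**
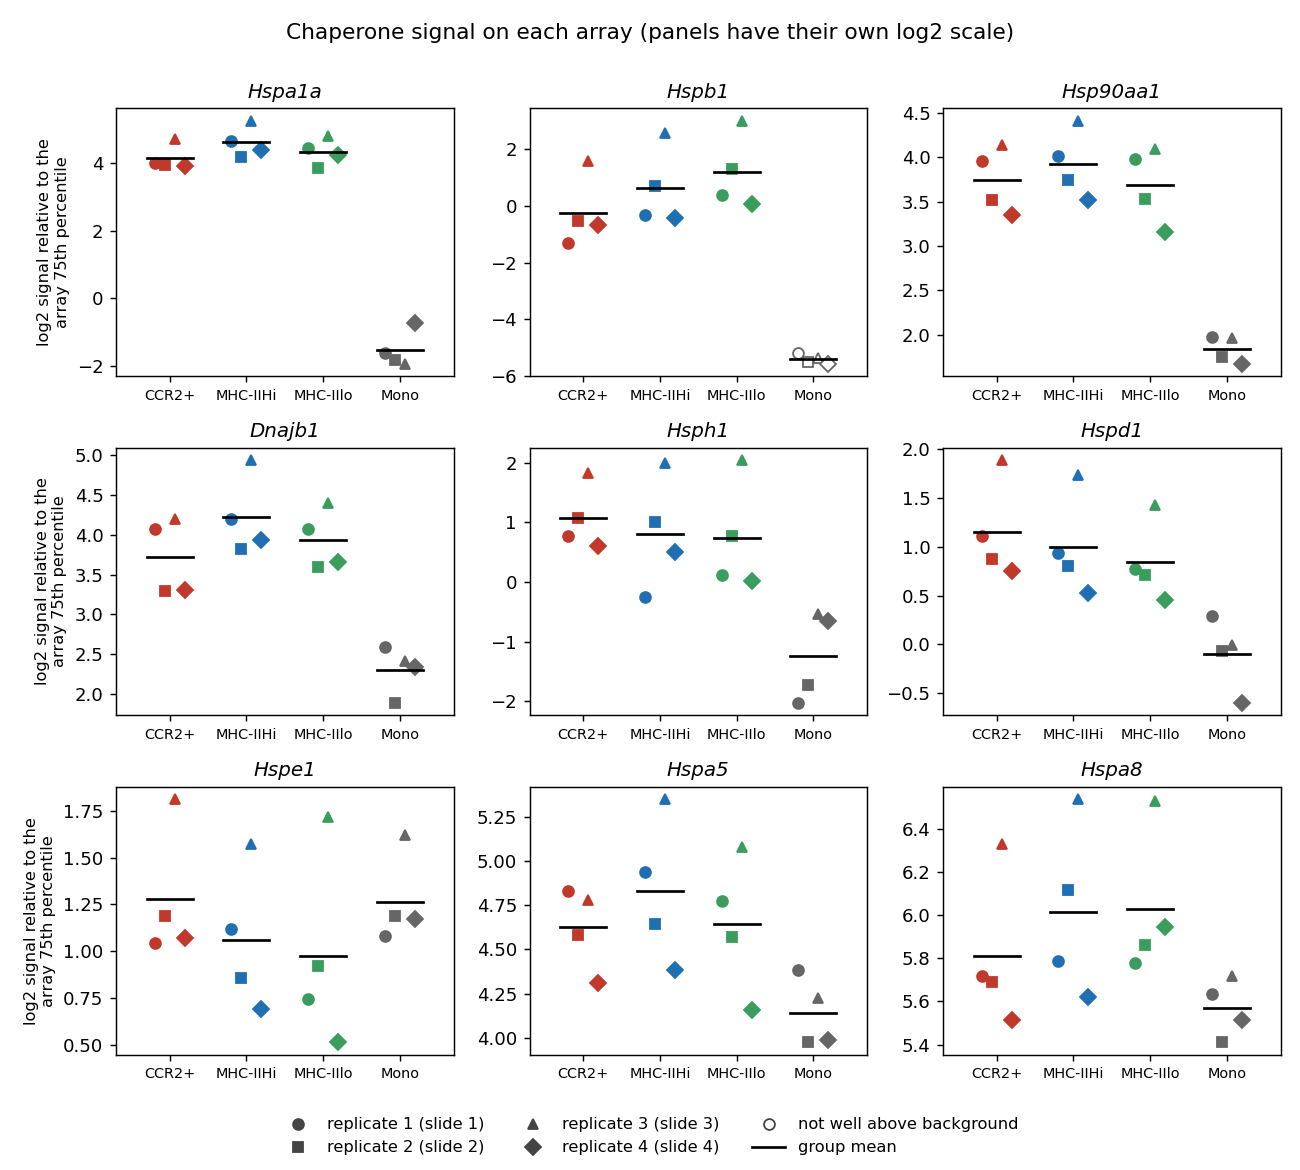
Signal of the 9 chaperones on each of the 16 arrays, as log2 relative to the 75th percentile of the array, in the 3 macrophage groups and in monocytes (Mono). Symbols give the replicate, which is the slide, black lines are group means over 4 arrays, and open symbols are spots not well above background. Hspa1a lies between 3.85 and 5.25 on every macrophage array and at or below -0.73 on every monocyte array, while Hspe1 overlaps between all groups.

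Hspa1a, the stress-inducible cytosolic HSP70, showed the widest gap of the 8 chaperones read well above background in monocytes. Its level was 4.01, 3.93, 4.72 and 3.92 on CCR2+ arrays, 4.66, 4.17, 5.25 and 4.39 on MHC-IIHi arrays and 4.45, 3.85, 4.80 and 4.23 on MHC-IIlo arrays, against -1.60, -1.83, -1.93 and -0.73 on monocyte arrays. The groups were far apart, and the highest monocyte array was that of slide 4. By limma Hspa1a was 50.7-fold higher in CCR2+ (log2 difference 5.66 ± 0.31 SE, adjusted p = 5.82e-09), 70.5-fold higher in MHC-IIHi (6.14 ± 0.31, adjusted p = 1.52e-09) and 57.9-fold higher in MHC-IIlo macrophages (5.85 ± 0.31, adjusted p = 2.49e-09) than in monocytes. The difference of CCR2+ macrophages from monocytes ranged between 4.64 and 6.65 over the 4 slides. For the mean of the macrophage groups, Hspa1a ranked 32 among 22095 features by log2 difference. Hspb1, known in monocytes only as a bound, ranked 29, so the order of these genes is not known.

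Hspb1 (HSP25 in mouse), the small heat shock protein that also binds actin filaments, was read well above background on all 12 macrophage arrays and on no monocyte array. Its level was -1.32, -0.55, 1.59 and -0.67 on CCR2+ arrays, -0.32, 0.69, 2.58 and -0.45 on MHC-IIHi arrays and 0.38, 1.30, 3.01 and 0.08 on MHC-IIlo arrays, and the monocyte mean, only a bound, was -5.41. The slide 3 array was the highest in each macrophage group. Where a monocyte array is given the dimmest signal that still counted as well above its background, Hspb1 was at least 7.47-fold higher in CCR2+, at least 13.6-fold higher in MHC-IIHi and at least 20.1-fold higher in MHC-IIlo macrophages. The limma adjusted p of the difference without the bound was 0.000125, 2.03e-05 and 7.80e-06 in that order. Without the slide 3 arrays the bounds were 4.92-, 8.69- and 13.3-fold, and the differences still passed (adjusted p = 2.77e-05, 5.93e-06 and 2.46e-06).

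Hsp90aa1, the stress-inducible cytosolic HSP90, was higher in macrophages. Its standard deviation between arrays was 0.37 to 0.43 in the macrophage groups and 0.15 in monocytes. Its level was 3.96, 3.52, 4.14 and 3.35 on CCR2+ arrays, 4.02, 3.75, 4.42 and 3.51 on MHC-IIHi arrays and 3.99, 3.53, 4.10 and 3.16 on MHC-IIlo arrays, against 1.98, 1.75, 1.96 and 1.67 on monocyte arrays. No macrophage array came near the monocyte range. The log2 difference from monocytes was 1.90 ± 0.26 in CCR2+ (adjusted p = 7.02e-05), 2.08 ± 0.26 in MHC-IIHi (adjusted p = 2.08e-05) and 1.85 ± 0.26 in MHC-IIlo macrophages (adjusted p = 6.55e-05), by limma, or 3.74-, 4.24- and 3.61-fold.

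The HSP70 partners Dnajb1 and Hsph1 were higher as well. Dnajb1, the main J-domain partner of inducible HSP70, was 4.07, 3.29, 4.20 and 3.31 on CCR2+ arrays, 4.20, 3.82, 4.94 and 3.93 on MHC-IIHi arrays and 4.07, 3.60, 4.40 and 3.65 on MHC-IIlo arrays, against 2.59, 1.89, 2.41 and 2.34 on monocyte arrays. Its log2 difference from monocytes was 1.41 ± 0.30 in CCR2+ (limma adjusted p = 0.00294), 1.92 ± 0.30 in MHC-IIHi (adjusted p = 0.000205) and 1.62 ± 0.30 in MHC-IIlo macrophages (adjusted p = 0.000836), with no overlap of the groups. Hsph1, the nucleotide exchange partner, was 0.78, 1.06, 1.83 and 0.60 on CCR2+ arrays, -0.26, 1.00, 1.99 and 0.51 on MHC-IIHi arrays and 0.12, 0.77, 2.05 and 0.01 on MHC-IIlo arrays, against -2.03, -1.74, -0.54 and -0.66 on monocyte arrays.
Hsph1 varied more within groups than the other cytosolic partner, yet its macrophage arrays all stood above its monocyte arrays. Its log2 difference was 2.31 ± 0.53 in CCR2+ (limma adjusted p = 0.00505), 2.05 ± 0.53 in MHC-IIHi (adjusted p = 0.0103) and 1.98 ± 0.53 in MHC-IIlo macrophages (adjusted p = 0.0127). A second, dimmer Hsph1 probe gave 2.19, 2.15 and 1.35, of which the value for MHC-IIlo macrophages missed the threshold (adjusted p = 0.109 when all probes were tested by themselves).

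**Figure D2:**
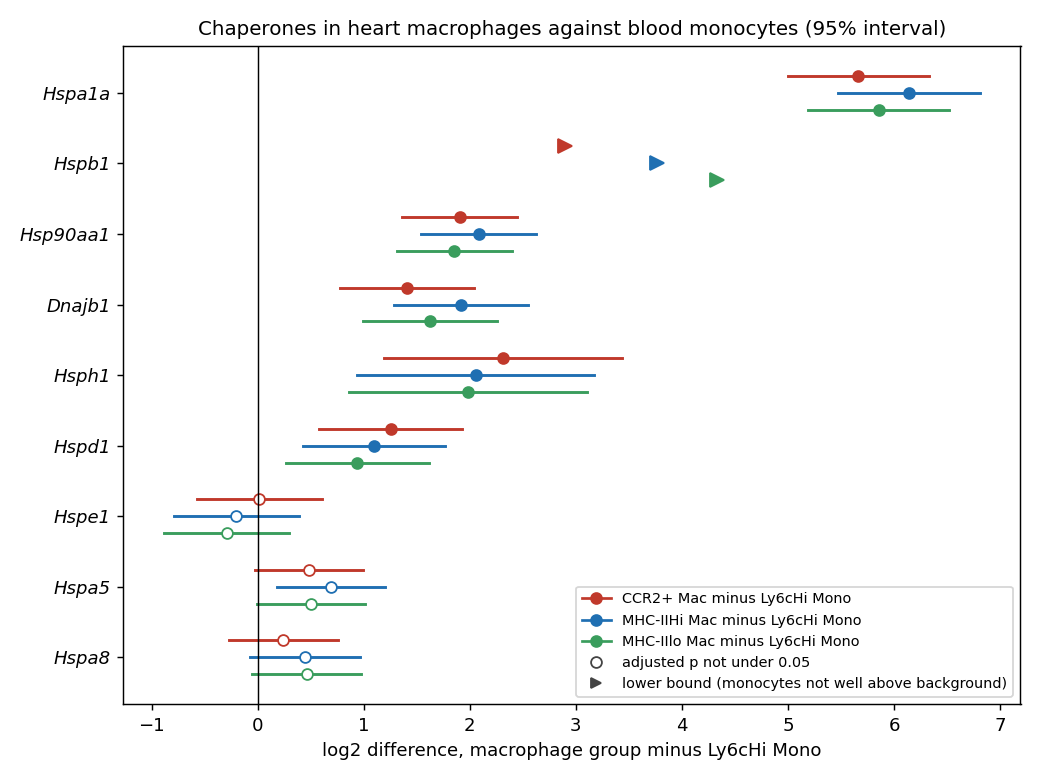
Log2 difference of each macrophage group from blood monocytes for the 9 chaperones, with 95% intervals from limma (n = 4 arrays per group). Filled points had an adjusted p under 0.05, and triangles are lower bounds for Hspb1, which monocyte arrays did not read above background. Hspa1a stands near 6, Hsp90aa1, Dnajb1, Hsph1 and Hspd1 between 0.94 and 2.31, and the intervals of Hspe1 and Hspa8 include 0.

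Of the mitochondrial chamber and its lid, transcribed from neighbouring genes, the chamber gene was higher in macrophages and the lid gene passed no test; the difference between them was not tested. Hspd1, the chamber, was 1.11, 0.87, 1.89 and 0.75 on CCR2+ arrays, 0.93, 0.80, 1.74 and 0.53 on MHC-IIHi arrays and 0.77, 0.71, 1.43 and 0.46 on MHC-IIlo arrays, against 0.29, -0.07, -0.01 and -0.60 on monocyte arrays. It was higher by 1.25 ± 0.32 in CCR2+ (limma adjusted p = 0.00987), 1.10 ± 0.32 in MHC-IIHi (adjusted p = 0.0205) and 0.94 ± 0.32 in MHC-IIlo macrophages (adjusted p = 0.0455), on 4 of 4 slides each. Without any slide 3 array, or scaled to the array median, the value for MHC-IIlo macrophages missed the threshold (adjusted p = 0.0688 and 0.124), as it did when any of 10 of the 16 single arrays was left out; that for MHC-IIHi macrophages missed it with median scaling (0.0717), without its replicate 3 (0.0704) or without monocyte replicate 4 (0.0673).
Hspe1, the lid, was 1.04, 1.19, 1.81 and 1.07 on CCR2+ arrays, 1.12, 0.86, 1.57 and 0.69 on MHC-IIHi arrays and 0.75, 0.92, 1.71 and 0.51 on MHC-IIlo arrays, against 1.08, 1.19, 1.62 and 1.17 on monocyte arrays. The ranges of the groups overlapped, though most MHC-IIlo arrays lay below the lowest monocyte array. The log2 difference of Hspe1 from monocytes was 0.01 ± 0.28 in CCR2+ (95% interval -0.58 to 0.60, limma adjusted p = 0.983), -0.20 ± 0.28 in MHC-IIHi (adjusted p = 0.72) and -0.29 ± 0.28 in MHC-IIlo macrophages (adjusted p = 0.554). With the replicate block no group passed, and the interval for MHC-IIlo macrophages was -0.58 to 0.002 (limma adjusted p = 0.123). The other Hspe1 probes, 1 of which shares a run of 45 bases with the probe used, gave differences between -0.26 and 0.17, and none passed the threshold.

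Hspa5, the HSP70 of the endoplasmic reticulum, was 4.83, 4.58, 4.78 and 4.31 on CCR2+ arrays, 4.94, 4.65, 5.35 and 4.39 on MHC-IIHi arrays and 4.78, 4.57, 5.08 and 4.16 on MHC-IIlo arrays, against 4.38, 3.97, 4.22 and 3.99 on monocyte arrays. Macrophage arrays lay above the monocyte array of the same slide on 4 of 4 slides in each group, by amounts near the spread between slides. The log2 difference was 0.48 ± 0.24 in CCR2+ (limma adjusted p = 0.179), 0.69 ± 0.24 in MHC-IIHi (adjusted p = 0.0529) and 0.50 ± 0.24 in MHC-IIlo macrophages (adjusted p = 0.169), and 0.56 ± 0.20 for the mean of the groups (adjusted p = 0.0452). With the replicate number as a block, all 3 groups passed (adjusted p = 0.0160, 0.00189 and 0.0128). The call for the mean was lost with median scaling (adjusted p = 0.191), with array weights (0.108), without slide 3 (0.152), and with any of 13 of the 16 single arrays left out (adjusted p up to 0.129). Quantile normalization gave 0.95, 1.04 and 0.85 for the 3 groups, all past the threshold.

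Hspa8, the constitutive HSP70 of the cytosol, was 5.72, 5.69, 6.33 and 5.51 on CCR2+ arrays, 5.79, 6.12, 6.54 and 5.62 on MHC-IIHi arrays and 5.78, 5.86, 6.53 and 5.95 on MHC-IIlo arrays, against 5.63, 5.41, 5.72 and 5.51 on monocyte arrays. CCR2+ and MHC-IIHi arrays overlapped the monocyte range and MHC-IIlo arrays stood just above it. The log2 difference was 0.24 ± 0.24 in CCR2+ (limma adjusted p = 0.55), 0.45 ± 0.24 in MHC-IIHi (adjusted p = 0.238) and 0.46 ± 0.24 in MHC-IIlo macrophages (adjusted p = 0.219). With the replicate block, MHC-IIHi (adjusted p = 0.0335) and MHC-IIlo macrophages (0.0289) passed, and with quantile normalization all 3 groups did (0.0114, 0.0102 and 0.0102), their differences then being 0.73, 0.73 and 0.73. The other Hspa8 probes gave 0.05 to 0.61 and did not pass.

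Among the macrophage groups no chaperone differed past the threshold. Of the 9, 0 were called by limma and 0 had an unadjusted p under 0.05 in CCR2+ against MHC-IIHi, CCR2+ against MHC-IIlo and MHC-IIHi against MHC-IIlo macrophages, where 1.25%, 2.77% and 0.0679% of all features were called in either direction. Hspb1 came closest: it was highest in MHC-IIlo, then MHC-IIHi, then CCR2+ macrophages on 4 of 4 slides. Its log2 difference was -1.43 ± 0.74 for CCR2+ minus MHC-IIlo macrophages (adjusted p = 0.499), with a 95% interval of -3.00 to 0.14. Hspa1a differed by -0.48 between CCR2+ and MHC-IIHi macrophages (95% interval -1.14 to 0.19) and Dnajb1 by -0.51 (-1.14 to 0.12), both lower in CCR2+ on 4 of 4 slides. With the replicate number as a block, which narrows the intervals, 0 of 9 were still called, but 1 had an unadjusted p under 0.05 in CCR2+ against MHC-IIHi and 2 in CCR2+ against MHC-IIlo macrophages. The blocked interval was -0.86 to -0.16 for Dnajb1 in CCR2+ minus MHC-IIHi (adjusted p = 0.128), and -2.41 to -0.45 for Hspb1 (adjusted p = 0.0933) and 0.01 to 0.60 for Hspe1 (adjusted p = 0.232) in CCR2+ minus MHC-IIlo macrophages. These intervals leave room for differences that 4 arrays a group did not resolve.

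Within groups, the chaperones were high together on 1 slide. On slide 3, 8 of the 9 chaperones, all but Hspa5, were at their highest in each of the 3 macrophage groups, a pattern that 5.43% of all features showed. Slides 1, 2 and 4 held 0 such chaperones, beside 11.9%, 3.75% and 4.00% of all features. The slide 3 count depends on the scaling, since the slide 3 array of MHC-IIHi macrophages had a 75th percentile of 941, the lowest of the 12 macrophage arrays. It was 7 of 9 with median scaling, 8 with quantile normalization, 9 with normexp and 5 on the unscaled signal (Hspa1a, Hspb1, Dnajb1, Hsph1 and Hspd1), where 0.281% of features showed the pattern. This pattern was noticed in the values and was not tested. The excess of the slide 3 array over the mean of the other 3 was 2.44, 2.60 and 2.42 log2 units for Hspb1 in CCR2+, MHC-IIHi and MHC-IIlo macrophages, and 0.06 in monocytes. No monocyte array read Hspb1 well above background, so the 0.06 cannot show whether its level differed on slide 3 there. For Hspa1a the excess was 0.77, 0.84 and 0.62 in the same macrophages and -0.55 in monocytes.
Hsph1 exceeded by 1.02, 1.57 and 1.75 in the macrophages and also by 0.93 in monocytes. With the 75th percentile scaling and the probes used in the fit, Hspa8, Hsph1 and Hspe1 were highest on slide 3 in all 4 groups, as were 2.44% of features. In monocytes the dimmer Hsph1 probe was instead highest on slide 1 (-1.73, against -2.42 on slide 3). The other Hspa8 probes were also highest on slide 1 in monocytes (4.19 against 3.95, and 5.15 against 5.09). Of the co-chaperones and HSF1 regulators, 8 of 22 were highest there in all 3 macrophage groups, among them Bag3, which links HSP70 to small heat shock proteins, Stip1, which bridges HSP70 and HSP90, and Ahsa1, which activates HSP90; the other chaperone lists ranged between 10 of 22 for endoplasmic reticulum genes and 0 of 11 for mitochondrial folding genes and 0 of 7 for the other small heat shock proteins, with 3 of 22 for J-domain, 2 of 8 for CCT, 2 of 9 for HSP70 and 1 of 3 for HSP90 genes. Outside the chaperones it was 4 of 8 for tissue macrophage markers, 2 of 7 for oxidative stress genes, 2 of 19 for immediate early genes and 0 of 9 for cardiomyocyte markers. The median excess of the other small heat shock proteins was -0.67, -0.59 and -0.34 in CCR2+, MHC-IIHi and MHC-IIlo macrophages. With all slide 3 arrays left out, the log2 difference of Hspa1a from monocytes was 5.33, 5.79 and 5.56 and that of Hsp90aa1 1.81, 1.96 and 1.76 in CCR2+, MHC-IIHi and MHC-IIlo macrophages, all past the threshold.

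**Figure D3:**
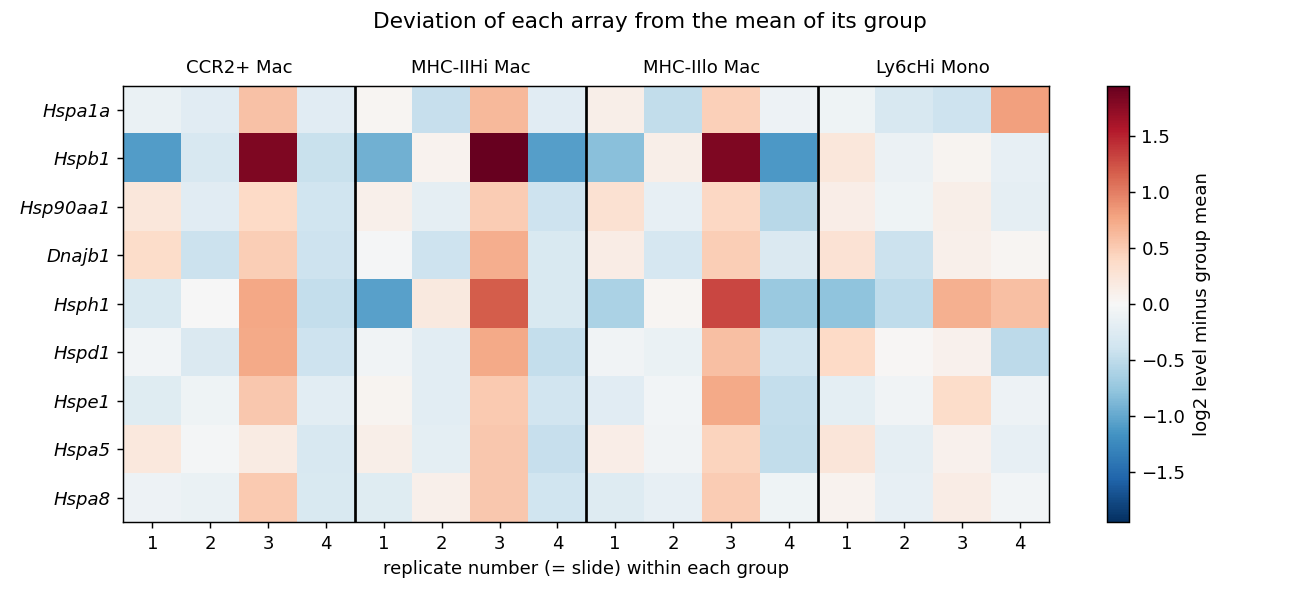
Log2 level of each chaperone on each array minus the mean of its group, with the arrays ordered by replicate number, which is the slide, within the 3 macrophage groups and monocytes. Red is above and blue below the group mean. The column of replicate 3 is red for all 9 genes in the 3 macrophage groups, with Hspb1 the deepest, while in monocytes Hspb1 is near 0 and Hspa1a is below it.

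Once group means were removed, the gene that followed each chaperone most closely over the 16 arrays was Mt2 for Hspa1a (r = 0.88), Cybc1 for Hspb1 (0.93), Cct5 for Hsp90aa1 (0.96), Thbd for Dnajb1 (0.95), BC065403 for Hsph1 (0.88), Mms22l for Hspd1 (0.96), Tppp3 for Hspe1 (0.94), Xbp1 for Hspa5 (0.97) and Tcn2 for Hspa8 (0.91). These are correlations over arrays that share slides and scaling, given as a description.

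Each of the other chaperone families held genes called higher in macrophages than in monocytes, and some also held lower ones. The values below are for the mean of the 3 macrophage groups minus monocytes, by limma, where 12.4% of features were higher and 15% lower. Of 9 other HSP70 and HSP110 genes tested, 4 were higher and 0 lower: Hspa2, known from the testis (2.09 ± 0.23, adjusted p = 5.07e-06), Hspa12b (0.89 ± 0.27), Hspa1l, at least 1.45-fold, and Hspa4l, for which the bound gives no fold. Hsp90ab1, the constitutive partner of Hsp90aa1, was higher by 0.84 ± 0.19 (adjusted p = 0.00339), and 2 other HSP90 genes were not called. Of 22 other J-domain genes 7 were higher and 1 lower, led by Dnaja1, another partner of cytosolic HSP70 (1.65 ± 0.22, adjusted p = 3.62e-05), Dnajb2 (1.20 ± 0.27) and Dnajb4 (1.10 ± 0.18), with Dnajc15, of mitochondria, lower (-1.14 ± 0.18). Their median was -0.13, beside -0.07 over all features.

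Of 7 other small heat shock proteins, Hspb7 (2.19 ± 0.33, adjusted p = 0.000125) and Hspb6 (1.04 ± 0.20, adjusted p = 0.000936), both abundant in heart muscle, were higher and 0 were lower. Of 8 subunits of the cytosolic chaperonin CCT, Cct3 was higher (1.10 ± 0.25) and Cct2 lower (-0.65 ± 0.18); the other 6 were not called. Of 22 HSF1 regulators and co-chaperones 5 were higher and 1 lower: Stip1 (1.06 ± 0.31), Bag2 (1.02 ± 0.28), St13 (0.84 ± 0.20), Hsf1 itself (0.56 ± 0.19, adjusted p = 0.0421) and the collagen chaperone Serpinh1, at least 2.45-fold, were higher, and the related factor Hsf2 was lower (-0.85 ± 0.21). Of 11 mitochondrial folding genes and proteases, 1 was higher, Grpel2 (0.57 ± 0.12), and 0 lower.

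Endoplasmic reticulum genes were split. Of 22 tested, 6 were higher and 3 lower. The transcription factors Ddit3 (CHOP; 1.77 ± 0.19, adjusted p = 4.96e-06) and Atf4 (1.11 ± 0.16), the disulfide isomerase Pdia4 (1.56 ± 0.25) and Dnajb9, a J-domain partner of Hspa5 (1.06 ± 0.24), were among the higher ones. Lower were 3 components of the unfolded protein response, the factor Xbp1 (-1.05 ± 0.24) and the sensor kinases Eif2ak3, or PERK (-0.75 ± 0.19), and Ern1, or IRE1 (-0.74 ± 0.18). None of the other chaperone genes in these lists was called between any macrophage groups.

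**Figure D4:**
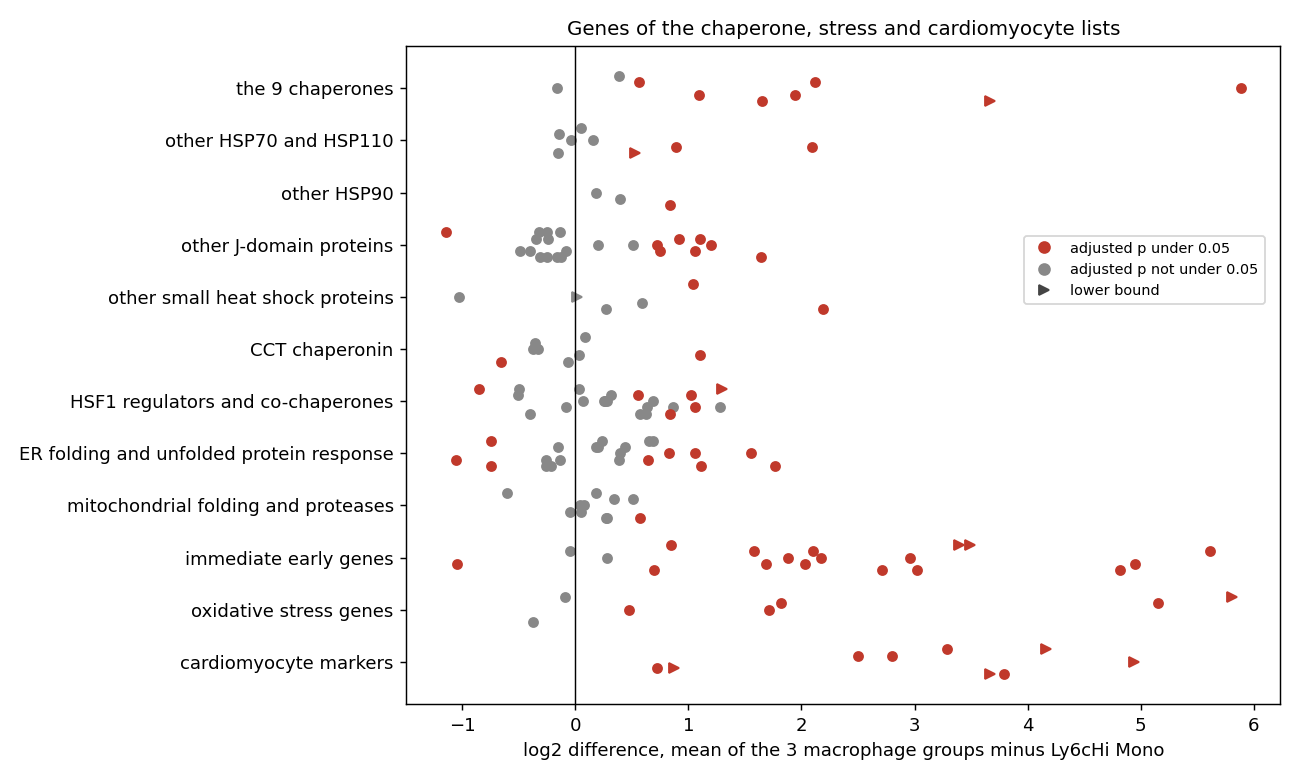
Log2 difference of the mean of the 3 macrophage groups minus monocytes for the 9 chaperones, 8 lists of related chaperones, stress and immediate early genes and for cardiomyocyte markers. Each point is a gene, red where the adjusted p was under 0.05, and triangles are lower bounds for genes not well above background in monocytes (genes with no positive bound are left out). Immediate early genes and cardiomyocyte markers lie almost wholly to the right of 0, while J-domain, CCT and mitochondrial genes scatter around it.

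Other gene groups also differed between macrophages and monocytes, and their part in the chaperone differences was not tested. Of 19 immediate early genes, 16 were higher and 1 lower for the same comparison, led by Egr1 (5.61 ± 0.21), Egr2, at least 10.5-fold, Fosb (4.95 ± 0.17) and Jun (4.82 ± 0.16), and Nr4a1 was lower (-1.05 ± 0.26). All 9 tested cardiomyocyte markers were higher (8 of 9 in CCR2+ macrophages alone), with Mb, the oxygen store of muscle, at least 30.8-fold and Tnnt2, a thin filament protein, at least 17.9-fold. Their summed linear signal, in units of the 75th percentile, was 19.9 to 31.1 on CCR2+, 25.4 to 38.6 on MHC-IIHi and 22.6 to 34.8 on MHC-IIlo arrays, against 2.50 to 3.27 on monocyte arrays. The markers Tnnt2, Actc1, Mb, Ryr2 and Csrp3 were well above background on 0 monocyte arrays, and Ryr2 on 0 arrays of any group. Tnnt2, Actc1, Mb and Csrp3 therefore passed the filter on dim probes through macrophage arrays alone and could scarcely come out lower. Ryr2 did not pass the filter. On slide 3, Mb stood at -0.20, 0.28 and -0.23 relative to the mean of the other 3 arrays and Tnnt2 at -0.45, 0.27 and -0.21 in CCR2+, MHC-IIHi and MHC-IIlo macrophages.

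For the mean of the 3 macrophage groups minus monocytes, all 4 tested fibroblast markers (Dcn, Col1a1, Col1a2 and Col3a1) were higher, and 3 of 4 were in each single group. Dcn (at least 32.2-fold) and Col1a1 (at least 2.67-fold) were well above background on 0 monocyte arrays. They therefore passed the filter on dim probes through macrophage arrays alone, and Pdgfra and Lum did not pass it. For the same mean, of 7 endothelial markers Tie1, at least 2.51-fold, Fabp4 and Emcn were higher and Flt1 lower. Of 5 neutrophil markers 0 were higher and Mmp8 was lower, of 4 lymphocyte markers 0 were called by limma, and of 6 dendritic cell markers Zbtb46 was higher and Cd209a lower. In CCR2+ macrophages alone, 1 neutrophil marker was higher and 1 lower, and 1 lymphocyte marker was lower. The part of these cells in the chaperone differences was not tested. Fibroblast markers summed to 3.63 to 10.2 on CCR2+, 4.70 to 9.39 on MHC-IIHi and 7.22 to 9.92 on MHC-IIlo arrays, against 1.07 to 1.32 on monocyte arrays, with Pdgfra on 0 arrays of any group.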

How the data were processed

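The authors deposited intensities from Agilent Feature Extraction 11.5.1.1, a version given in the submitters' processing notes; the processed signal of each spot, in arbitrary units, had its background removed and was detrended within the array, with a substitute value for dim spots, per the file headers. Partek is named in the submitters' processing notes, with no step given. The deposited value table, on a log2 scale by its values, was used only to compare its columns with the arrays: the 16 best correlations were at least 0.995, and the correlation with the array of the same label was at most 0.969.

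Each array had 44397 spots, 1377 of them controls. Spots marked as outliers were left out, which dropped 110 of 39429 probes, and spots of a probe were averaged. The log2 signal minus the 75th percentile of the array was taken for probes well above background on at least 4 of 16 arrays (27643), and the brightest probe per gene gave 22095 features, 17590 of them with a symbol. Symbols of 27508 probes came from RefSeq by accession. Probe names and accessions were told apart by content, since their headings were exchanged in the files.

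Differences were fitted in limma 3.58.1 (R 4.3.3), with 1 mean per group over all 16 arrays with no block, 12 residual degrees of freedom, and Benjamini-Hochberg adjustment over all features of a comparison. The procedure was run on simulated data with independent noise and no slide effect, so that run does not cover spread shared within slides. Where no monocyte array read a gene well above background, a fold is a lower bound against the dimmest signal that still counted as well above background there. Such a gene passed the filter on dim probes through macrophage arrays alone, so it could scarcely come out lower in macrophages. No spot was saturated, and the number of arrays limits the precision.

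Arrays of the same replicate number deviated alike: deviations from group means correlated at 0.137 to 0.637 for all 24 same-numbered pairs of arrays, against -0.534 to 0.491 for the others, and each number is a slide per the file headers. Deviations within a group cancel, which by itself lowers the correlations of the other pairs. The ranges overlap, since arrays of slides 2 and 4 also deviated alike, so this does not show that samples were paired beyond sharing a slide. The alternatives were median scaling, quantile normalization, normexp background (offset 50), other probe filters, the mean of probes, the replicate block, array weights, only the compared groups, and leaving out arrays. Each probe by itself, all slide 3 arrays left out and the slide 3 count under other scalings were chosen after seeing the data. The 9 genes, the lists and the tests were chosen with earlier results of these data known. All 9 were named, and from a list up to 4 called genes by size of the log2 difference. In some lists with few calls every called gene was named, and in others fewer. St13, Hsf1 and the genes named for slide 3 were chosen after their values were seen.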

Additional observations from a re-analysis of the deposited data

Results flagged for a closer look

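Hspa1a in CCR2+ macrophages had 1 array away from the other 3. Replicate 3 stood at a log2 level of 4.72, the nearest array at 4.01 and the farthest at 3.92, so that the gap to the nearest was 0.887 of the whole range, above Dixon's critical value for 4 samples. This was the only one of 36 sets of 4 arrays (9 genes in 4 groups) past that value, where chance alone flags a share of about 0.05. Without the slide 3 arrays, Hspa1a was still higher in CCR2+ macrophages than in monocytes, by 5.33 on the log2 scale (limma adjusted p = 1.52e-06).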

How the results depend on the processing

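The counts of chaperones higher than in monocytes stayed between 5 and 8 of 9 in each macrophage group under every alternative run, and no difference between a macrophage group and monocytes that passed changed direction. Hspa1a, Hspb1, Hsp90aa1 and Dnajb1 passed in each macrophage group under every alternative that tested them, Hspb1 not being tested where a probe had to be well above background on all 16 arrays. The block by replicate number raised the counts to 7 in CCR2+, 8 in MHC-IIHi and 8 in MHC-IIlo macrophages, and between macrophage groups its lowest adjusted p was 0.0933, for Hspb1 in CCR2+ against MHC-IIlo; beside Hspa5 and Hspa8 it changed no call. Normexp moved the median of all features to -0.25, -0.21 and -0.23 in CCR2+, MHC-IIHi and MHC-IIlo macrophages minus monocytes, beside -0.09, -0.05 and -0.05. Calls over all features in CCR2+ macrophages against monocytes numbered 4800, beside 7471 with the block, 8590 with no filter on dim probes and 3092 without slide 3. Between macrophage groups the calls depended more on the setting: in CCR2+ against MHC-IIHi 276, beside 947 with array weights and 83 without slide 3, in CCR2+ against MHC-IIlo 612, beside 1260 with the block and 250 without slide 3, and in MHC-IIHi against MHC-IIlo 15, beside 91 with array weights and 0 without slide 3. The cause was not tested. Hspb1 in monocytes is known only as a bound.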

Other observations

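Some genes of the response to metals and oxidants were higher in heart macrophages. Of 10 listed, 7 were tested, and 5 were higher and 0 lower for the mean of the 3 macrophage groups minus monocytes, by limma. Of all features, 12.4% were higher and 15% lower. The metallothioneins, small proteins that bind zinc and copper, led the higher genes: Mt1 by 5.16 ± 0.21 on the log2 scale and Mt2 at least 56.0-fold. Mt2 passed the filter on dim probes through macrophage arrays alone, and Nqo1, Gclm and Slc7a11 did not pass it. Hmox1, which breaks down heme, was higher by 1.71 ± 0.19, and Srxn1, which restores oxidised peroxiredoxins, by 1.82 ± 0.24. Of 9 proliferation markers 5 were higher and 0 lower in the same comparison, led by the replication helicase subunit Mcm2 (3.52 ± 0.46) and the mitotic protein Birc5 (3.16 ± 0.35). None of the genes named in this paragraph was called between any of the macrophage groups.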
